A study of Mus musculus with 8 samples.

Results

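The genes described here are the 10 regulators through which cells are known to set the expression of mitochondrial proteins, chosen by symbol from the 55401 genes of each table. They are the PGC-1 coactivators Ppargc1a, Ppargc1b and Pprc1, the DNA-binding factors Nrf1 and Gabpa, the nuclear receptors Esrra, Ppara and Rxra, and the upstream enzymes Sirt1 and Prkaa1. All 10 symbols were found once in every table. The cells were AML12, a hepatocyte line established from a mouse transgenic for human TGF alpha. The groups were 4 dishes exposed for 1 h to Opti-ELF-WMF, a 10 µT (100 mG) magnetic field given as 4 ms pulses of 1 to 8 Hz, and 4 control dishes. The controls, grown from 1 cell batch together with the exposed cells, were kept unexposed in a separate incubator, so the exposure and the incubator cannot be told apart. The paper does not say whether this batch was the same for all dishes. All dishes were of 1 line, and the p-values measure the spread between dishes only.

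PGC-1 coactivators bind no DNA themselves. They are recruited by factors such as NRF-1, GABP and ERR alpha to the promoters of respiratory chain genes and of Tfam. The product of Tfam packages mitochondrial DNA and takes part in its transcription. PPAR alpha, as a heterodimer with RXR alpha, is the route by which PGC-1 alpha reaches fatty acid oxidation genes in liver. AMP-activated protein kinase (AMPK) phosphorylates PGC-1 alpha and SIRT1 deacetylates it, so part of the control of these regulators is at the protein level, which RNA-seq does not measure. The comparison asks whether the mRNAs of this machinery differed after 1 h of the magnetic field.

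After 1 h of exposure, none of the 10 regulators had a level in the exposed dishes that was separated from the control dishes. Of the 8 regulators abundant enough to enter the fit across all genes, 0 had an unadjusted p-value under 0.05 by limma, and 0 had groups that did not overlap. Of all tested genes, 12.0% were higher and 3.65% lower at that threshold, and without overlap 8.01% were higher and 1.86% lower. The smallest p-value was that of Prkaa1, which encodes the alpha 1 catalytic subunit of AMPK, at 36.0 ± 1.1 TPM in control dishes and 37.8 ± 1.2 TPM in exposed dishes (SD, n = 4 each; unadjusted p = 0.0903, adjusted p = 0.404, limma). What stood out in the levels was their order. Pprc1 was the most abundant of the 10 regulators, and the better known coactivators Ppargc1a and Ppargc1b were below or near 1 TPM in every dish.

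Promoters of 9 of the 10 regulators were matched in RefSeq on GRCm38.p6, as windows of 300 bases that hold 250 bases before and 50 bases after a transcription start. Nrf1 and Rxra had 2 windows each. The windows were searched on both strands for the NRF-1 core GCGCATGC, the GABP motif CCGGAAGT, the ERR motif TCAAGGTCA and the cyclic AMP response element TGACGTCA. Among all 32851 promoter windows of the same length, 2.71% held the NRF-1 core, 3.89% the GABP motif, 0.423% the ERR motif and 1.79% the cyclic AMP response element. The NRF-1 core was found in the windows of 2 regulators, Esrra and Ppara, and no window of the other matched regulators held any of the 4 motifs. These sequences are shown because they hold the matches, with Ppargc1a beside them as the least abundant regulator and Tfam as the target gene of the pathway. Capitals mark the motif. Positions are counted from the transcription start, with negative numbers before it.

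The Ppargc1a window lies at chr5:51567676-51567975 on the minus strand, has 48.7% G and C and 5 CpG dinucleotides, and holds none of the motifs. The Esrra window, at chr19:6921759-6922058 on the minus strand, has 66.0% G and C, and its NRF-1 core begins at position -34 and reads on the opposite strand. The Ppara window, at chr15:85735526-85735825 on the plus strand, has 74.7% G and C, and its core begins at position -31 as 2 overlapping copies, one on each strand. The Tfam window, at chr10:71237995-71238294 on the minus strand, has 70.3% G and C and a GABP motif beginning at position -47.
Ppargc1a: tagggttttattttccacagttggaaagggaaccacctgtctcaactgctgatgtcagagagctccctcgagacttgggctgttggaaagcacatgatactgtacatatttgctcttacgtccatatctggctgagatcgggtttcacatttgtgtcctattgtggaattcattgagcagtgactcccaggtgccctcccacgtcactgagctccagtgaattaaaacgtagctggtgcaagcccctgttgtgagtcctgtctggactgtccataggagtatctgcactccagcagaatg
Esrra: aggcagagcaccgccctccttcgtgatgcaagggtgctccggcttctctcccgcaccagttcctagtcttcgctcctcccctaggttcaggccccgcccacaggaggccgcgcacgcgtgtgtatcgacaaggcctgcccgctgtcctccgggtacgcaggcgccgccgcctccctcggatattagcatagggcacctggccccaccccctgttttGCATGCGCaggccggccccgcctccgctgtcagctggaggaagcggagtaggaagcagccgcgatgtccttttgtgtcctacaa
Ppara: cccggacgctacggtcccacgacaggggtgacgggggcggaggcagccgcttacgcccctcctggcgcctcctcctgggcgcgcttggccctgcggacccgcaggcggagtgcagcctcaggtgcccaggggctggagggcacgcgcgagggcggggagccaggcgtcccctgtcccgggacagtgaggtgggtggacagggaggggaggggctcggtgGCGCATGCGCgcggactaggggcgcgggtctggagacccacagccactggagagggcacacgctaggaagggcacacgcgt
Tfam: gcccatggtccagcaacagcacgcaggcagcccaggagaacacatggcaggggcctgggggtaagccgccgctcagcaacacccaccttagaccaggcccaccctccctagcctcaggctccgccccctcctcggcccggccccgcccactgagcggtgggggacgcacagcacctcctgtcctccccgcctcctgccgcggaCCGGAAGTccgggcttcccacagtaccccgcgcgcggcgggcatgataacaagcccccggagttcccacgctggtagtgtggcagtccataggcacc

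The windows of the regulators differed widely in base composition. The median window of all genes had 52.7% G and C and 7 CpG dinucleotides. Prkaa1, with 82.0% and 52 CpG dinucleotides, Sirt1, with 79.0% and 47, the first Rxra window, with 83.0% and 55, and the first Nrf1 window, with 77.0% and 43, lay far above that median, whereas Ppargc1a lay below it in both measures. Pprc1, the most abundant coactivator, had 50.0% G and C and 14 CpG dinucleotides. The second windows of Nrf1 and Rxra held 2 and 1 CpG dinucleotides. A match, or the lack of one, says only which letters stand in these windows.

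Expression was measured as TPM, the reads of a gene divided by its length and scaled so that every sample sums to 1000000. Levels of different genes can therefore be set side by side per length, but the number of reads behind each value is unknown. Over the 8 dishes the mean levels were 75.7 TPM for Pprc1, 57.9 for Esrra, 36.9 for Prkaa1, 36.5 for Nrf1, 35.6 for Gabpa, 18.4 for Rxra, 10.4 for Sirt1, 7.83 for Ppara, 0.779 for Ppargc1b and 0.776 for Ppargc1a. In this order the ranges of neighbouring genes over the 8 dishes overlapped for Prkaa1 and Nrf1, for Nrf1 and Gabpa, and for Ppargc1b and Ppargc1a, and were separate for every other pair of neighbours. The largest step was 10.1-fold, from Ppara to Ppargc1b. Pprc1 lay at the 91.2 percentile of the genes with a level above 0, Esrra at the 88.6 percentile, and Ppargc1a and Ppargc1b at the 50.7 percentile. The spread between dishes was widest at the low end, with a coefficient of variation of 25.3% for Ppargc1a, 12.8% for Ppargc1b and 10.5% for Ppara, and it lay between 3.96% and 7.06% for the other 7 regulators.

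**Figure D1:**
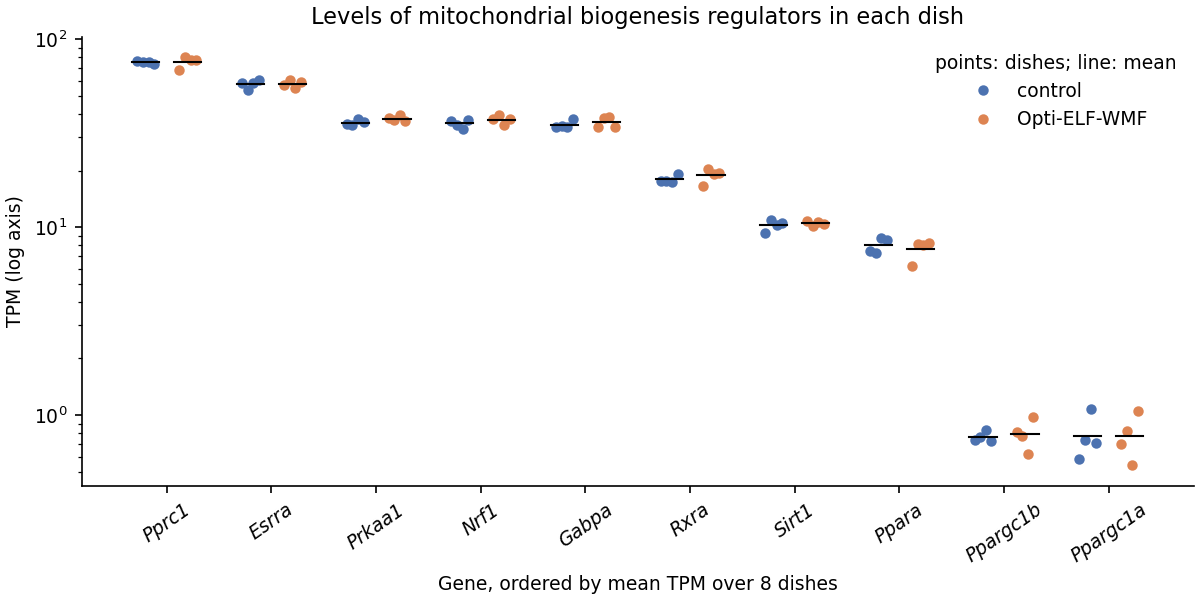
Level of each regulator in TPM on a log axis, ordered by the mean over 8 dishes, with control dishes in blue, Opti-ELF-WMF dishes in orange, 1 point per dish and a line at each group mean. The levels run from 75.7 TPM for Pprc1 to 0.776 TPM for Ppargc1a, and within each gene the 2 groups overlap.

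By role, the PGC-1 coactivators come first. Positions are given on GRCm38, from the GENCODE M21 annotation. Ppargc1a (ENSMUSG00000029167, chr5:51454250-51567726, minus strand) encodes PGC-1 alpha, the coactivator that fasting, cold and exercise are known to induce. Its level was 0.58, 0.74, 1.07 and 0.71 TPM in control dishes 1 to 4 and 0.70, 0.82, 0.54 and 1.05 TPM in exposed dishes 1 to 4. Both the lowest and the second highest value were in exposed dishes, and the groups overlapped over nearly their whole range. The means were 0.775 ± 0.21 and 0.778 ± 0.21 TPM (SD, n = 4 each; exact two-sided permutation p = 1), and in a fit that kept all genes with any value above 0 the difference of mean log2(TPM + 1) had a 95% interval from -0.26 to 0.26. Ppargc1b (ENSMUSG00000033871) encodes PGC-1 beta, the coactivator tied to lipid synthesis as well as respiration. It was at 0.74, 0.76, 0.83 and 0.73 TPM in control dishes and 0.81, 0.77, 0.62 and 0.97 TPM in exposed dishes. The exposed dishes held both the lowest and the highest value (0.765 ± 0.045 against 0.792 ± 0.14 TPM; difference 0.02 on the log2 scale, 95% interval -0.14 to 0.18, exact permutation p = 0.714). Neither gene reached 1 TPM in 4 dishes, so neither entered the fit on which the counts of called genes rest, and the log2(TPM + 1) scale understates changes at such levels.

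Pprc1 (ENSMUSG00000055491, chr19:46044886-46072915, plus strand) encodes PRC, the PGC-1-related coactivator, which is known as a serum-responsive member of the family in growing cells. Its level was 76.63, 75.58, 75.58 and 73.80 TPM in control dishes and 68.32, 80.27, 77.85 and 77.64 TPM in exposed dishes. Exposed dish 1 was the lowest of the 8 dishes and the other 3 exposed dishes were the highest. The means were 75.4 ± 1.2 and 76.0 ± 5.3 TPM, a difference of 0.01 ± 0.05 (SE) in mean log2(TPM + 1) with a 95% interval from -0.10 to 0.11 (limma, unadjusted p = 0.848, adjusted p = 0.951). With each dish left out in turn the difference was -0.02 to 0.06, with an unadjusted limma p-value of 0.0617 to 0.986. The highest difference was without exposed dish 1. That dish was the only exposed dish not above every control, so its removal separated the groups by construction. Under each of 3 other scalings of all 8 dishes the difference was -0.02. Pprc1 made up 97.5% to 98.5% of the summed TPM of the 3 coactivators in each dish, 98.0% on average in both groups. Its mean level was 97.5-fold that of Ppargc1a and 48.7-fold the sum of the other 2 coactivators.

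The DNA-binding factors are NRF-1 and GABP. Nrf1 (ENSMUSG00000058440, chr6:30047988-30153458, plus strand), whose product binds as a homodimer to GC-rich sites in respiratory chain promoters, was at 36.76, 34.98, 33.47 and 37.37 TPM in control dishes and 37.55, 39.34, 35.11 and 37.51 TPM in exposed dishes. Exposed dish 3 lay below control dishes 1 and 4, and the other 3 exposed dishes lay above every control dish. The difference of the means, 35.6 ± 1.8 against 37.4 ± 1.7 TPM, was 0.07 ± 0.05 (SE) in log2(TPM + 1), with an interval from -0.04 to 0.17 (limma, unadjusted p = 0.181, adjusted p = 0.533). With each dish left out in turn the difference was 0.04 to 0.10, with an unadjusted limma p-value of 0.0681 to 0.432. The largest was without exposed dish 3, the only exposed dish that overlapped the controls, so its removal separated the groups by construction.

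Gabpa (ENSMUSG00000008976, chr16:84834925-84863779, plus strand) encodes the subunit of GABP that binds DNA through an ETS domain. It was at 34.00, 34.60, 34.13 and 37.53 TPM in control dishes and 34.07, 37.90, 38.53 and 34.14 TPM in exposed dishes. In both groups the dishes fell near 34 TPM or near 38 TPM, 3 and 1 in the controls and 2 and 2 after exposure. The difference of the means, 35.1 ± 1.7 against 36.2 ± 2.4 TPM, was 0.04 ± 0.05 (SE), with an interval from -0.07 to 0.16 (limma, unadjusted p = 0.439, adjusted p = 0.755). The beta subunits carry the transactivation domain of the complex. Gabpb1 was at 21.0 ± 0.26 and 22.1 ± 0.68 TPM (difference 0.07, limma unadjusted p = 0.0878) and Gabpb2 at 18.8 ± 1.1 and 18.8 ± 1.3 TPM. The ratio of Gabpa to the sum of both beta subunits was 0.88 ± 0.033 in control and 0.885 ± 0.049 in exposed dishes (exact permutation p = 0.886).

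The most abundant of the nuclear receptors was Esrra (ENSMUSG00000024955, chr19:6910977-6921813, minus strand), which encodes ERR alpha, the orphan receptor that takes PGC-1 coactivators as its effective ligands. It was at 58.57, 53.70, 58.81 and 60.44 TPM in control dishes and 56.79, 60.47, 54.75 and 59.52 TPM in exposed dishes. Values of both groups were mixed along the whole range. The means were 57.9 ± 2.9 and 57.9 ± 2.6 TPM, and the interval of the log2 difference ran from -0.10 to 0.10 (limma, unadjusted p = 0.994, adjusted p = 0.998). Its paralogs were nearly silent. Esrrb was between 0.02 and 0.19 TPM, and Esrrg was listed at 0 in every dish but control dish 3, at 0.01 TPM, so Esrra held between 99.66% and 99.96% of the family in each dish.

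Ppara (ENSMUSG00000022383, chr15:85734983-85802819, plus strand) encodes PPAR alpha, the fatty acid sensor of liver. It was at 7.50, 7.25, 8.77 and 8.51 TPM in control dishes and 6.21, 8.15, 8.05 and 8.20 TPM in exposed dishes. Exposed dish 1 lay below all other dishes, and the other 3 exposed dishes lay between the lower and the upper pair of controls. It was the only one of the 8 tested regulators with a difference below 0, -0.06 ± 0.09 (SE), with an interval from -0.27 to 0.15 (limma, unadjusted p = 0.525, adjusted p = 0.809), and without exposed dish 1 the difference was 0.02. Ppard, the widely expressed family member, was more abundant, at 14.0 ± 1.0 and 14.7 ± 1.3 TPM, and Pparg, known as the fat cell receptor, was at 6.06 ± 0.39 and 6.79 ± 0.45 TPM (difference 0.14, limma unadjusted p = 0.0569, adjusted p = 0.341). As a share of the summed TPM of the 3 receptors, Ppara was 28.5 ± 1.3% in control and 26.2 ± 1.6% in exposed dishes, a difference of -2.31 percentage points (exact permutation p = 0.0857).

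Rxra (ENSMUSG00000015846, chr2:27676440-27762957, plus strand) encodes RXR alpha, a heterodimer partner of PPAR alpha. It was at 17.70, 17.67, 17.43 and 19.11 TPM in control dishes and 16.49, 20.43, 19.09 and 19.47 TPM in exposed dishes. Exposed dish 1 was again the lowest of all, and control dish 4 stood among the 3 higher exposed dishes. The groups differed by 0.06 ± 0.06 (SE) in mean log2(TPM + 1), with an interval from -0.08 to 0.21 (limma, unadjusted p = 0.346, adjusted p = 0.691). With each dish left out in turn the difference was 0.03 to 0.12, with an unadjusted limma p-value of 0.0286 to 0.702. The largest was without exposed dish 1, with an adjusted p-value of 0.257.

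Rxrb, the paralog that can take the same partner role, was the one gene among the 10 paralogs, partner subunits and Tfam named with the regulators whose groups were separate. It was at 28.48, 28.31, 28.90 and 28.39 TPM in control dishes and 26.90, 26.66, 26.53 and 26.95 TPM in exposed dishes. Every exposed dish was below every control dish, with a gap larger than the range within either group. The means were 28.5 ± 0.26 and 26.8 ± 0.20 TPM, a difference of -0.09 ± 0.03 (SE) with an interval from -0.15 to -0.02. The unadjusted p-value was 0.0138 and the exact permutation p-value 0.0286, the smallest that 4 dishes against 4 can give, but the adjusted p-value over all genes was 0.194 (limma), so the difference did not pass the correction. It was -0.12 under each of the 3 other scalings and between -0.09 and -0.08 when each dish was left out in turn. Among all tested genes, 1.86% had all exposed dishes below all control dishes. As a share of the RXR family, Rxra was 38.7 ± 1.1% in control and 41.3 ± 2.3% in exposed dishes, with Rxrg listed at 0 in every dish (difference 2.64 percentage points, exact permutation p = 0.114).

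**Figure D2:**
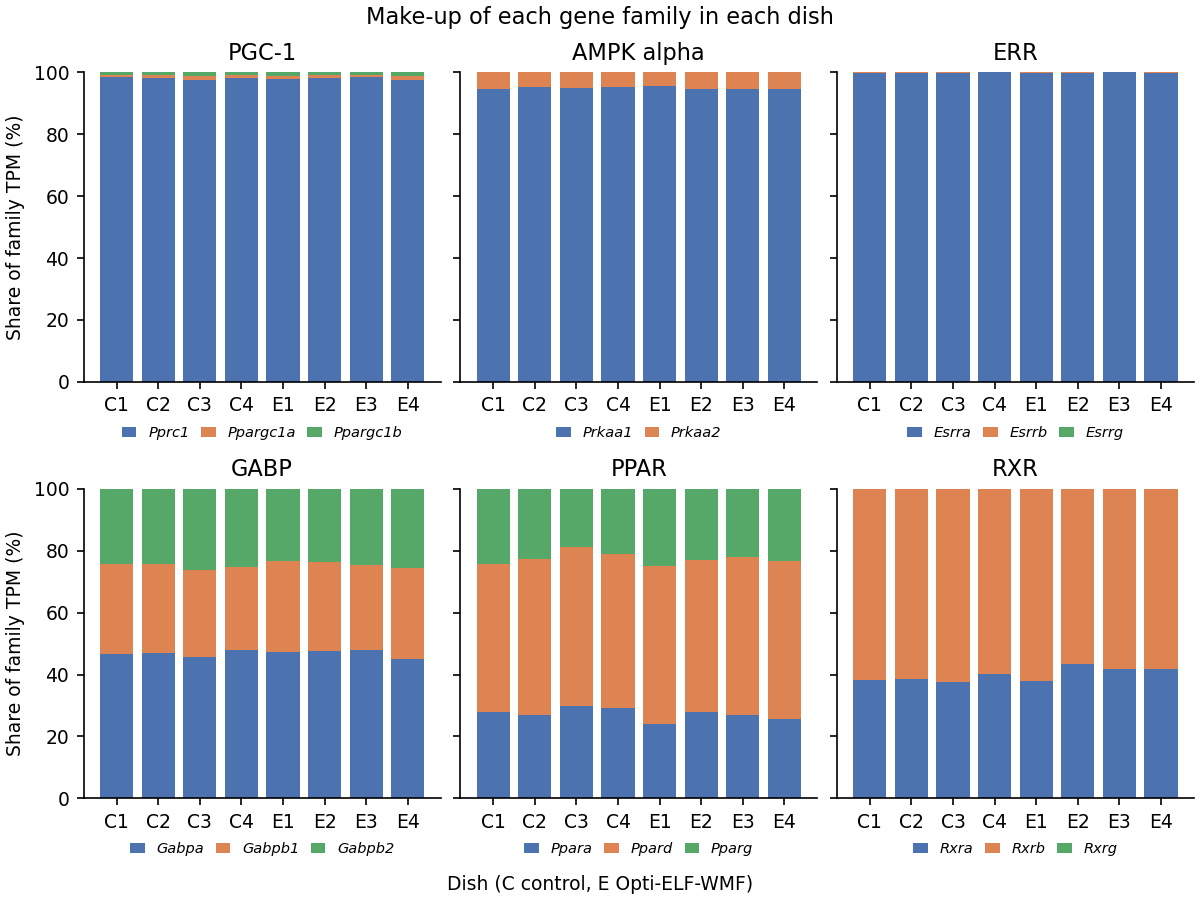
Share in percent of each gene in the summed TPM of its family, 1 stacked bar per dish, for the PGC-1, AMPK alpha, ERR, GABP, PPAR and RXR families. Pprc1, Prkaa1 and Esrra fill most of their families in every dish, while the GABP, PPAR and RXR families are shared, with Rxra between 37.6% and 43.4%.

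The upstream enzymes were Sirt1 and Prkaa1. Sirt1 (ENSMUSG00000020063, chr10:63319005-63381704, minus strand), the NAD-dependent deacetylase of PGC-1 alpha, was at 9.28, 10.91, 10.30 and 10.50 TPM in control dishes and 10.81, 10.17, 10.61 and 10.40 TPM in exposed dishes. The exposed dishes lay within the range of the controls. The means were 10.2 ± 0.69 and 10.5 ± 0.28 TPM, with an interval of the log2 difference from -0.09 to 0.16 (limma, unadjusted p = 0.559, adjusted p = 0.825). Prkaa1 (ENSMUSG00000050697, chr15:5143861-5181899, plus strand) was at 35.29, 34.92, 37.49 and 36.16 TPM in control dishes and 38.13, 37.13, 39.30 and 36.50 TPM in exposed dishes. Control dishes 1, 2 and 4 lay below every exposed dish, and control dish 3 was above 2 of them. The difference was 0.07 ± 0.04 (SE), with an interval from -0.01 to 0.15 (limma, unadjusted p = 0.0903, adjusted p = 0.404, exact permutation p = 0.114). Without control dish 3 the difference was 0.09 (limma, unadjusted p = 0.0455, adjusted p = 0.377). That dish was the only control above any exposed dish, so its removal separated the groups by construction. The other catalytic subunit, Prkaa2, was low, at 1.93 ± 0.13 and 2.08 ± 0.24 TPM, so Prkaa1 was 94.4% to 95.6% of the AMPK alpha transcripts in each dish.

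The 3 genes whose pattern over the 8 dishes was nearest to that of Prkaa1, by the distance between centred log2(TPM + 1) values, were Cdc42, a small GTPase of the cytoskeleton, at a distance of 0.045, Lin7c, a scaffold protein of cell polarity, at 0.053, and Selenot, a selenoprotein of the endoplasmic reticulum, at 0.055. The median distance over 12114 genes was 0.252. Cdc42 was at 212 and 221 TPM in control and exposed dishes, Lin7c at 56.9 and 60.9 TPM, and Selenot at 112 and 120 TPM.

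Tfam, the target gene in which the regulators meet, was at 42.64, 49.60, 45.51 and 46.29 TPM in control dishes and 46.14, 48.10, 50.50 and 46.93 TPM in exposed dishes. Control dish 2 was above 3 of the 4 exposed dishes. The means were 46.0 ± 2.9 and 47.9 ± 1.9 TPM, a difference of 0.06 ± 0.05 (SE) with an interval from -0.05 to 0.17 (limma, unadjusted p = 0.251, adjusted p = 0.61).

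The fit covered the 12122 genes that reached 1 TPM in 4 or more dishes. In it, limma gave an adjusted p-value under 0.05 to 0 genes (0%), 1451 genes (12.0%) were higher and 443 (3.65%) lower after exposure at an unadjusted p-value under 0.05, and 971 (8.01%) had every exposed dish above every control dish. The 8 tested regulators stood at 0 in each of these counts. The values of 7 of the 8 were above 0 and that of Ppara was below, where 7720 of all 12122 tested genes were above 0. The median difference of the 8 was 0.038, beside 0.026 over all tested genes. With the values rescaled by the median of ratios, by the upper quartile or after removal of the genes encoded by mitochondrial DNA, 5 of 8 were above 0 because Pprc1 and Esrra turned below 0. The 95% intervals of the 8 regulators together reached from -0.27, the lower bound of Ppara, to 0.21, the upper bound of Rxra, in log2(TPM + 1).

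**Figure D3:**
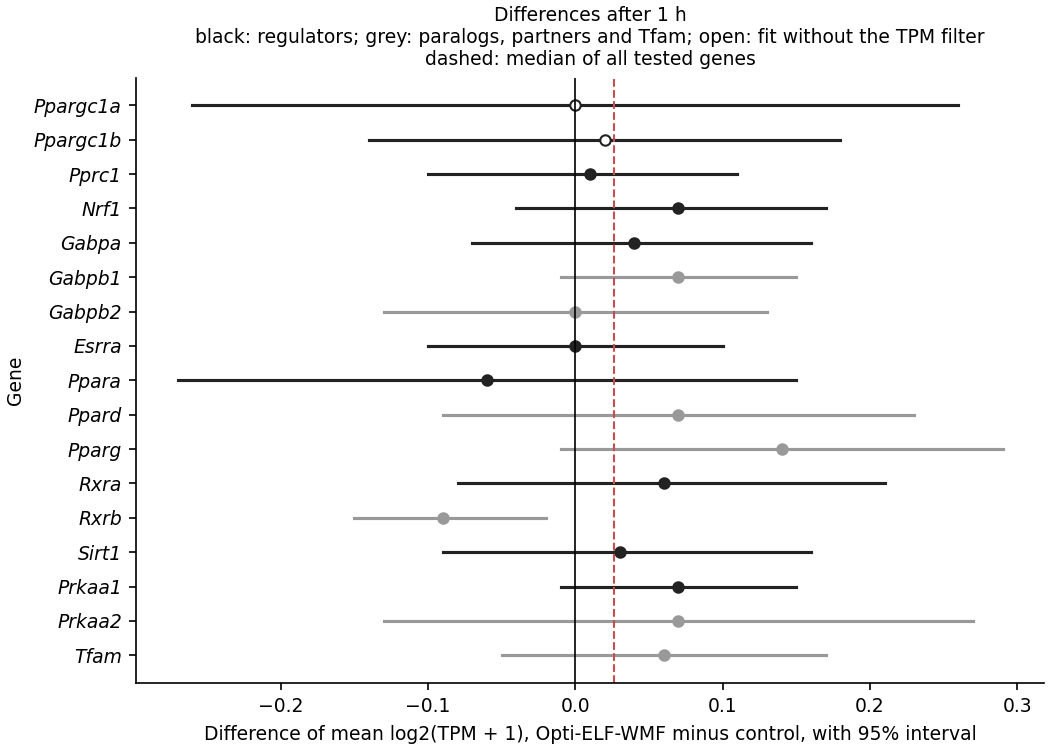
Difference of mean log2(TPM + 1), Opti-ELF-WMF minus control, with its 95% interval, for the regulators in black and for their paralogs, partner subunits and Tfam in grey. The intervals of all 10 regulators include 0, and that of Rxrb, from -0.15 to -0.02, does not.

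Some dishes held the lowest or the highest value of several regulators. Whether this exceeds what independent genes would give was not tested. Exposed dish 1 was the lowest of the 8 dishes for Pprc1, Ppara and Rxra. Exposed dish 2 was the highest for Pprc1, Nrf1, Esrra and Rxra, and it was also the dish with the smallest share of TPM in transcripts of mitochondrial DNA, 5.99%. That share was 8.94 ± 0.34% in control dishes (8.69% to 9.42%) and 7.04 ± 0.76% in exposed dishes (5.99% to 7.69%). Because all TPM of a dish share 1 total, a smaller share there raises the values of all other genes. After rescaling without those transcripts, exposed dish 2 remained the highest for Pprc1, Nrf1 and Rxra, and the median difference of all tested genes moved from 0.026 to -0.0016. The mix of higher and lower genes moved with it. Of the genes at an unadjusted p-value under 0.05, 76.6% were higher in the deposited values, 50.0% after that rescaling, 47.1% with median-of-ratios scaling and 42.3% with upper-quartile scaling.

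The identity of the cells was read from marker genes. All 9 hepatocyte markers reached 1 TPM in at least 1 dish, with a summed level of 1614 to 1686 TPM in control and 1611 to 1731 TPM in exposed dishes. Their medians ran from 0.98 TPM for Afp to 825 TPM for Trf, and Alb, the defining one, had a median of 52.8 TPM. The 3 epithelial markers, Krt8, Krt18 and Cdh1, summed to 4203 to 4393 TPM in control and 4475 to 4684 TPM in exposed dishes. Theirs was the one list whose sums did not overlap between the groups. In the same deposited values, 8.01% of all tested genes had every exposed dish above every control dish. The sums were not rescaled for the smaller share of transcripts of mitochondrial DNA in exposed dishes. Of 4 cholangiocyte markers 3 also reached 1 TPM, led by Krt19, with sums of 1203 to 1291 TPM in control and 1218 to 1339 TPM in exposed dishes. The 3 endothelial markers, 3 of 4 macrophage markers and 5 of 6 stellate cell markers were under 1 TPM in every dish. Summed over each list, endothelial markers were at 0 to 0.05 TPM in control and 0.02 to 0.08 TPM in exposed dishes, macrophage markers at 1.6 to 2.34 and 1.2 to 1.81 TPM, and stellate cell markers at 0.52 to 1.87 and 0.42 to 1.35 TPM. The part of these markers in the levels of the regulators was not tested. In RNA from whole dishes, a change in the number of cells that express a gene and a change in its RNA per cell cannot be told apart.

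The genes around the regulators were read from 6 lists of 108 genes, all of which were found and 92 of which were abundant enough to test. Adjusted over all genes, the limma p-value was under 0.05 for 0 of the 92. At an unadjusted p-value under 0.05, 18 were higher and 3 lower, 22.8% in all, beside 15.6% of all tested genes. With median-of-ratios scaling 5 were higher and 6 lower, 12.0% of the 92, beside 11.8% of all tested genes (5.55% higher and 6.23% lower). Rescaled without transcripts of mitochondrial DNA, 6 were higher and 4 lower, 10.9%, beside 11.4% (5.68% in each direction). With upper-quartile scaling 3 were higher and 6 lower, 9.78%, beside 11.5% (4.85% higher and 6.61% lower). The larger share of the surrounding genes was thus present in the deposited values and not under these 3 scalings. Of the 18 genes named from the lists, 6 had an unadjusted p-value under 0.05 in all 3 of these scalings. Rxrb, Prmt1, Mybbp1a, Sirt4 and Angptl4 were among them. The 18 were picked by their p-values in these same dishes, so this is not separate support. With each dish left out in turn, the unadjusted limma p-value reached 0.0867 for Sirt4 and 0.132 for Angptl4. It stayed under 0.05 for Rxrb, Prmt1 and Mybbp1a.

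Among 13 coregulators and modifying enzymes, all of them tested, 6 were higher and 0 lower at that threshold, where 12.0% of all tested genes were higher. Under the other scalings 3 to 4 of the 13 were higher and 0 lower, beside 4.85% to 5.68% of all tested genes higher. Prmt1, the arginine methyltransferase that methylates PGC-1 alpha, was at 427.16, 411.98, 411.35 and 433.76 TPM in control dishes and 460.62, 479.48, 442.50 and 456.27 TPM in exposed dishes. Every exposed dish was above every control dish. The means were 421 ± 11 and 460 ± 15 TPM, a difference of 0.13 ± 0.03 (SE; limma, unadjusted p = 0.002, adjusted p = 0.126), and the difference was 0.09 to 0.10 under the other scalings. Hdac3, a histone deacetylase of corepressor complexes, was at 85.2 ± 1.7 and 90.3 ± 2.0 TPM (0.08 ± 0.03, limma unadjusted p = 0.0122). Its unadjusted p-value was 0.0545 to 0.0844 under the other scalings. Mybbp1a, a binding protein that represses PGC-1 alpha, was at 166 ± 4.0 and 180 ± 5.5 TPM (0.11 ± 0.03, unadjusted p = 0.00361, adjusted p = 0.139). In both of these genes, too, the groups did not overlap. Among all tested genes, 8.01% had every exposed dish above every control dish.

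Among 18 partner factors, 14 were tested, with 1 higher and 1 lower, beside 12.0% and 3.65% of all tested genes. The higher one was Hcfc1, host cell factor, at 70.3 ± 1.9 and 74.8 ± 2.8 TPM (0.09 ± 0.03, limma unadjusted p = 0.0286, adjusted p = 0.251). Its unadjusted p-value was 0.0537 to 0.107 under the other scalings. The lower one was Rxrb. Of the AMPK list of 12 genes, 11 were tested and 1 was higher, Cab39, the scaffold of the upstream kinase LKB1, at 133 ± 0.88 and 141 ± 4.9 TPM (0.09 ± 0.03, unadjusted p = 0.0108, adjusted p = 0.182), with an unadjusted p-value of 0.0357 to 0.0561 under the other scalings. Of 16 genes of sirtuins and NAD metabolism, 14 were tested. Parp1, which consumes NAD, was at 77.8 ± 0.79 and 82.2 ± 3.0 TPM (0.08 ± 0.03, unadjusted p = 0.0289, adjusted p = 0.252), and its unadjusted p-value was 0.0673 to 0.122 under the other scalings. Sirt4, a mitochondrial sirtuin, was at 14.94, 17.43, 13.28 and 13.03 TPM in control dishes and 14.76, 10.79, 10.75 and 11.09 TPM in exposed dishes. Exposed dish 1 stood among the controls and the other exposed dishes below them. The difference of -0.29 ± 0.11 (SE) was the largest in size among the named genes, with an unadjusted p-value of 0.0303 and an adjusted p-value of 0.258 (limma).

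Of 22 targets of NRF-1, GABP and ERR, all tested, 5 were higher and 0 lower, beside 12.0% and 3.65% of all tested genes. Under the other scalings 0 to 1 were higher, beside 4.85% to 5.68% of all tested genes, and 1 was lower with median-of-ratios and with upper-quartile scaling. They included Idh3a and Cs of the citric acid cycle and Atp5b, the beta subunit of ATP synthase. Idh3a was at 127 ± 2.6 and 138 ± 5.9 TPM (0.11 ± 0.03, limma unadjusted p = 0.00871, adjusted p = 0.172) and Cs at 187 ± 1.9 and 196 ± 6.0 TPM (0.07 ± 0.03, unadjusted p = 0.0239). Atp5b was at 1274 ± 18 and 1354 ± 60 TPM (0.09 ± 0.03, unadjusted p = 0.0217). Exposed dish 2 was the highest dish for Cs and Atp5b, and exposed dish 1 for Idh3a. Without exposed dish 2, 1 of the 22 targets was higher, beside 1066 of all 12122 tested genes.

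Of 27 targets of PPAR alpha and PGC-1 alpha in liver, 18 were tested, with 4 higher and 1 lower, beside 12.0% and 3.65% of all tested genes. Under each of the other scalings 0 were higher and 2 lower, beside 4.85% to 5.68% and 5.68% to 6.61% of all tested genes. Acaa2 and Hadha, enzymes of fatty acid oxidation, were at 57.8 ± 1.4 and 62.0 ± 2.5 TPM and at 80.5 ± 2.5 and 85.3 ± 1.4 TPM (limma, unadjusted p = 0.0195 and 0.0199). Plin2, which coats lipid droplets, was at 301 ± 8.1 and 320 ± 11 TPM, and Ucp2, a carrier of the inner mitochondrial membrane, at 73.0 ± 2.7 and 78.1 ± 2.7 TPM (unadjusted p = 0.0195 and 0.0246). The lower one was Angptl4, a secreted inhibitor of lipoprotein lipase, at 23.6 ± 0.97 and 21.9 ± 0.91 TPM (-0.10 ± 0.04, unadjusted p = 0.0495, adjusted p = 0.319). The 9 untested genes of this list included targets by which the pathway is best known in liver. Singled out after their values were seen, Pck1 and Cyp4a14 were listed at 0 in every dish. Cpt1a, the entry enzyme of fatty acid oxidation, was by contrast at 118 ± 0.93 and 122 ± 4.1 TPM (unadjusted p = 0.204).

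**Figure D4:**
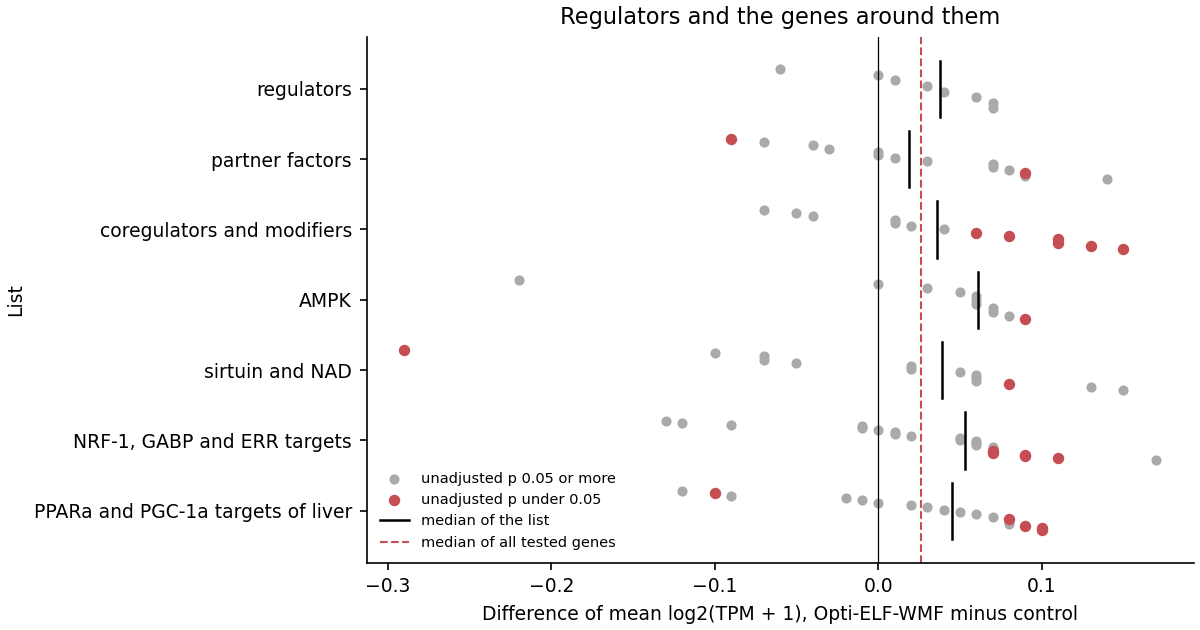
Difference of mean log2(TPM + 1), Opti-ELF-WMF minus control, for the 8 tested regulators and the tested genes of 6 surrounding lists, 1 point per gene, with the median of each list as a black bar and the median of all tested genes (0.026) as a dashed line. Red points have an unadjusted p-value under 0.05, of which the regulators have 0 and the coregulators 6.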

How the data were processed

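Stranded poly(A) libraries of 4 control and 4 Opti-ELF-WMF dishes of AML12 cells were sequenced on a NovaSeq. The authors deposited 1 table of TPM per dish, and the submitters' processing notes name Trimmomatic 0.39, STAR 2.7.4a, RSEM 1.3.3 and the build mm10. The annotation release is not given in the sources used here. TPM keeps no depth, so counting errors are unknown.

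Groups came from the sample labels. Genes reaching 1 TPM in 4 or more dishes (12122) were tested on log2(TPM + 1), pseudocount 1, with limma 3.58.1 (eBayes with trend, R 4.3.3), two-sided, with Benjamini-Hochberg adjustment over all of them. Single values were also tested by exact two-sided permutation over 70 assignments (scipy 1.17.1, smallest p 0.0286). The pipeline was tested on simulated data. No list was tested as a set. The regulators and lists were chosen with earlier results of these data known. Named genes were the 10 regulators, 9 paralogs and partner subunits, Tfam, up to 4 genes per list and direction with the smallest unadjusted p-value under 0.05, and the 3 genes nearest to Prkaa1. Some genes that this rule covers are not reported here.

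Promoters came from RefSeq on GRCm38.p6. Alternatives were the filter, the pseudocount 0.1, 3 scalings, a block for the replicate number, and each dish left out in turn.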

Additional observations from a re-analysis of the deposited data

Results flagged for a closer look

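A dish was marked where its distance to the nearest of the other 3 dishes of its group as a share of the range of the group was over Dixon's 95% limit for 4 values. Of 84 groups examined 6 were marked, where chance gives 4.2. Gabpa was 37.53 TPM in control dish 4, with the other control dishes at 34.0 to 34.6 TPM. Rxra was 19.11 TPM in the same dish (others 17.43 to 17.7), and Atp5b was 1300 TPM there (others 1262 to 1267). Ppara was 6.21 TPM in Opti-ELF-WMF dish 1 (others 8.05 to 8.2), and Sirt4 was 14.76 TPM in that dish (others 10.75 to 11.09). Esrrg was 0.01 TPM in control dish 3 and listed at 0 in the other control dishes.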

How the results depend on the processing

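Of the regulators, 0 had an unadjusted p-value under 0.05 under either other filter, the pseudocount 0.1 and each of the 3 scalings, and 0 to 1 when each dish was left out in turn (Rxra without Opti-ELF-WMF dish 1, Prkaa1 without control dish 3). The count of regulators whose groups did not overlap was likewise 0 to 1. With each dish left out in turn, 12.3% to 16.2% of all tested genes had an unadjusted limma p-value under 0.05. Groups with a dish left out separate more readily, and the share of all genes without overlap is not given for those settings. By limma, the number of genes with an adjusted p-value under 0.05, 0 in the main setting, was 1 when 1 TPM was required in every dish, 1 with median-of-ratios scaling, 1 with upper-quartile scaling, and 0 to 2 when each dish was left out. The count of surrounding genes with an unadjusted p-value under 0.05 was 21, and it was 11 with median-of-ratios scaling, 10 after rescaling without transcripts of mitochondrial DNA and 9 with upper-quartile scaling, and 12 to 27 with each dish left out, the lowest being without Opti-ELF-WMF dish 2. The log2 difference of Pprc1 turned to -0.0198, -0.0202 and -0.0241 and that of Esrra to -0.0286, -0.029 and -0.0328 with median-of-ratios scaling, the rescaling and upper-quartile scaling. With each dish left out Pprc1 ran from -0.0175 to 0.059, Esrra from -0.0346 to 0.0263, Ppara from -0.103 to 0.0237 and Sirt1 from -0.00903 to 0.0617. As an alternative chosen after seeing the data, the difference in family share was -2.87 to -1.62 percentage points for Ppara and 1.94 to 3.74 for Rxra with each dish left out. The cause was not tested.

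Deviations of dishes with the same replicate number correlated between -0.0419 and 0.0258. These values gave no sign of pairing, but they cannot exclude it, because the size expected of paired dishes is unknown. With the replicate block 0 genes had an adjusted p-value under 0.05, 0 regulators an unadjusted one, and 20 surrounding genes did. The depth of the libraries is unknown, which limits what can be said of Ppargc1a and Ppargc1b, both near 1 TPM.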
